A study of Mus musculus with 6 samples.

Results

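The PGC-1 coactivators are a family of 3 mouse genes, Ppargc1a, Ppargc1b and Pprc1. They are described here in brown fat of cold-housed and warmer-housed mice, gene by gene, start site by start site and transcript by transcript. Members are all transcripts that the GENCODE M21 annotation assigns to these 3 gene names, a rule that holds no threshold on a measured value. Of 21730 annotated genes and 59371 annotated transcripts with a read in the series, 3 genes and 14 transcripts belong to the family. The cold group was 3 wild type male C57BL/6N mice, aged 20 weeks and kept alone in their cages at 4 °C for 24 h. The ctrl group was 3 wild type male mice of the same strain and age, held at the colony temperature of 22 to 24 °C. Whether the ctrl mice were also caged alone is not stated, so an effect of being caged alone cannot be told apart from one of cold. Each mouse gave 1 library of poly(A) RNA from interscapular brown adipose tissue, read as long cDNA molecules without PCR on an Oxford Nanopore device with 2 flow cells.

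PGC-1 proteins bind no DNA themselves. They dock on transcription factors such as nuclear receptors and the nuclear respiratory factors, and bring in histone acetyltransferases and the Mediator complex, which raises transcription of genes for mitochondria and fuel oxidation. In brown fat, noradrenaline released in the cold acts through beta-adrenergic receptors, cyclic AMP and protein kinase A on the Ppargc1a gene, and PGC-1alpha is known for its part in heat production there. Ppargc1a is also known to be read from an alternative, upstream promoter, and to give a shortened protein through an alternative splice site before the exon 7 described below.

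Reads per mouse ranged from 1657985 to 2082203 in the cold group and from 1829442 to 2238056 in the ctrl group. Levels are given as CPM, read counts scaled by library size with TMM factors, and 3 reads correspond to 1.4 to 1.75 CPM. The 10 brown adipocyte markers, led by Ucp1, Cox8b and Cidea, all had reads and summed to between 20700 and 21400 CPM in cold mice and between 17300 and 19300 CPM in ctrl mice. Ucp1 alone averaged 13800 CPM in cold mice and 10700 CPM in ctrl mice, against list means of 21000 and 18500 CPM. The higher sum in cold mice thus follows Ucp1 and does not show that the other markers rose. The 12 skeletal muscle markers, led by Acta1, Myl1 and Myh4, set some libraries apart. Their sum was 324, 1380 and 3370 CPM in cold mice 4, 11 and 15, against 183, 477 and 701 CPM in ctrl mice 2, 9 and 14. Cold mouse 15 was therefore the highest of the 6, while cold mouse 4 lay within the ctrl range (exact permutation p = 0.3 between groups). Of 7 white adipocyte markers, the 2 named Hoxc9 and Tcf21 had no read, and the sum of the list was 125 to 151 CPM in cold mice against 66 to 105 CPM in ctrl mice. Other marker lists also lay apart between the groups at lower levels. Endothelial markers summed to 277 to 309 CPM in cold mice against 234 to 245 CPM in ctrl mice, and macrophage markers to 93.7 to 128 CPM in cold mice against 62.8 to 92.9 CPM in ctrl mice. Pericyte and smooth muscle markers summed to 162 to 177 CPM in cold mice against 204 to 226 CPM in ctrl mice, and lymphocyte markers to at most 1.45 CPM in cold mice and 3.26 CPM in ctrl mice. Mitochondrially encoded genes took 27.6 to 29% of reads in cold mice and 29.7 to 32.5% in ctrl mice. The part of these other cells in the results below was not tested, except where values without a library, or with a muscle term in the fit, are given. In a bulk tissue, fewer cells of a type and less RNA per cell cannot be told apart.

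Ppargc1a rose 5.02-fold in the cold. The gene lies on the minus strand of chromosome 5, from 51454250 to 51567726 in GRCm38, and all 5 of its annotated transcripts had reads. It had 262, 252 and 235 reads in cold mice 4, 11 and 15, against 37, 51 and 63 reads in ctrl mice 2, 9 and 14. As levels, these were 127, 126 and 137 CPM in cold mice, against 21.4, 26 and 29.3 CPM in ctrl mice. The groups did not overlap: the lowest cold mouse was 4.31 times the highest ctrl mouse. The means were 130 ± 6.02 CPM in cold mice and 25.6 ± 3.97 CPM in ctrl mice (SD, n = 3 each). The fold change was 5.02, with a 95% interval of 4.19 to 6.01 (log2 fold change 2.33, SE 0.13, edgeR adjusted p = 1.2e-11). By fold change it was number 46 of 8684 tested genes, of which 19.5% were called in either direction, 9.75% higher and 9.77% lower. Cold mouse 4, with muscle markers inside the ctrl range, had 127 CPM of Ppargc1a. With the muscle level as a term in the fit the log2 fold change was 2.24, and without cold mouse 15 and ctrl mouse 2 it was 2.19. Non-overlapping groups were seen in 35.1% of tested genes.

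**Figure D1:**
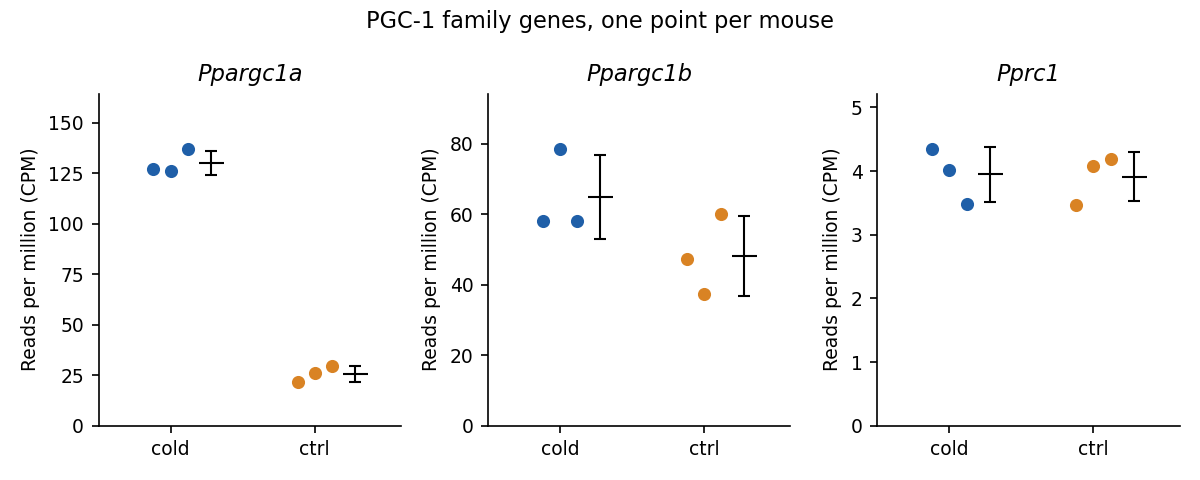
Level in CPM of Ppargc1a, Ppargc1b and Pprc1 in each mouse, cold on the left and ctrl on the right, with the mean and SD of each group as a black cross and bar. Ppargc1a lies between 126 and 137 CPM in cold mice and between 21.4 and 29.3 CPM in ctrl mice, while the groups overlap for Ppargc1b and Pprc1.

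The annotated starts of Ppargc1a fall into a proximal group of 3 transcripts and a distal group of 2, whose most upstream starts are 13804 nt apart. Each start has its own first exon with its own start codon, and both are spliced to the same second exon. These sequences are shown because a read that reaches its 5′ end can be assigned to a promoter by them. Capitals mark the coding bases of the first exon, and lower case the first 12 bases of the shared second exon. They come from the GENCODE M21 transcripts (GRCm38, minus strand), and span chr5:51548680-51553782 for the proximal and chr5:51548680-51567665 for the distal form, with the intron left out.
Proximal first exon, 16 codons: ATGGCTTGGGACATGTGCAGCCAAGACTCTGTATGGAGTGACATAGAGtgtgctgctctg
Distal first exon, 12 codons: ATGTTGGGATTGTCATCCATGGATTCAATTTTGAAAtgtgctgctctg

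Directly upstream of the distal start lie the bases chr5:51567726-51567975 (minus strand, RefSeq promoter table, GRCm38.p6), shown because this start had the larger fold change of the starts of Ppargc1a. Capitals mark the reverse complement of TGACG, the core of the cyclic AMP response element.
Distal start, 250 upstream bases: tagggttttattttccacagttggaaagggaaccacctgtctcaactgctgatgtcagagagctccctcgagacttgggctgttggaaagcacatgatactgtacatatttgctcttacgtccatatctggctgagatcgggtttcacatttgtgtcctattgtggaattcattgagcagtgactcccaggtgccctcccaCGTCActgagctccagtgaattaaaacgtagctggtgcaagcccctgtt
The TGACG core occurred 1 time in these bases, searched on both strands, from 49 to 45 bases before the RefSeq start. The same 5 letters were present in the 250 upstream bases of 17.8% of 32851 RefSeq promoters. The full element TGACGTCA was not in the window and was present in 1.55% of promoters. The E-box CANNTG occurred 6 times, and 66.2% of promoters had at least 1. The estrogen-related receptor element TCAAGGTCA, present in 0.387% of promoters, and the MEF2 element, present in 2.92%, were not in the window. A match describes letters only, and none of these windows was measured for binding.

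Reads from the distal start were plentiful in cold mice and almost missing in ctrl mice. Cold mice 4, 11 and 15 had 25, 21 and 15 such reads, against 1, 0 and 1 reads in ctrl mice 2, 9 and 14. The levels were 12.1, 10.5 and 8.73 CPM in cold mice, against 0.579, 0 and 0.465 CPM in ctrl mice, so that the groups lay well apart. The pooled counts of 61 and 2 reads gave a ratio of rates of 30.8, with a 95% counting interval of 8.16 to 260. The fitted log2 fold change was 4.70 (SE 0.56, edgeR adjusted p = 3.6e-07), number 6 of 10164 tested start groups by fold change. That rank gives no support, since the distal start passed the filter on low counts through its cold levels alone. The fitted fold change was 26, with a 95% interval of 11.8 to 57.3. Because the ctrl counts are so low, the fitted size depends on the prior count. The counting interval is wider, but it pools the reads of the mice and leaves out the spread between them. On the first flow cell the distal start had 15, 15 and 12 reads in cold mice against 1, 0 and 1 in ctrl mice, and on the second 10, 6 and 3 reads against none in any ctrl mouse. Cold mouse 4, with the lowest muscle markers of the cold group, had the highest distal level.

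The proximal start rose as well, and most of the increase was counted on it. It had 237, 231 and 220 reads in cold mice, against 36, 51 and 62 reads in ctrl mice. The mean level was 119 ± 7.52 CPM in cold mice and 25.2 ± 4.07 CPM in ctrl mice, with no overlap. The fold change was 4.67 (95% interval 3.86 to 5.65, log2 fold change 2.22, SE 0.13, edgeR adjusted p = 4.12e-12). Both start groups of Ppargc1a were thus called higher, against 8.96% of all start groups called higher, 8.69% called lower and 17.7% called in either direction. The groups did not overlap in 33.5% of all start groups. The distal start passed the filter on low counts through its cold levels alone, so its part in this count was set in advance. Of the gain in Ppargc1a level, 94.2 CPM (90.3%) was counted on the proximal start and 10.1 CPM (9.68%) on the distal start. These counts follow annotated transcripts, so a molecule read without its 5′ end can be counted on either start.

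**Figure D2:**
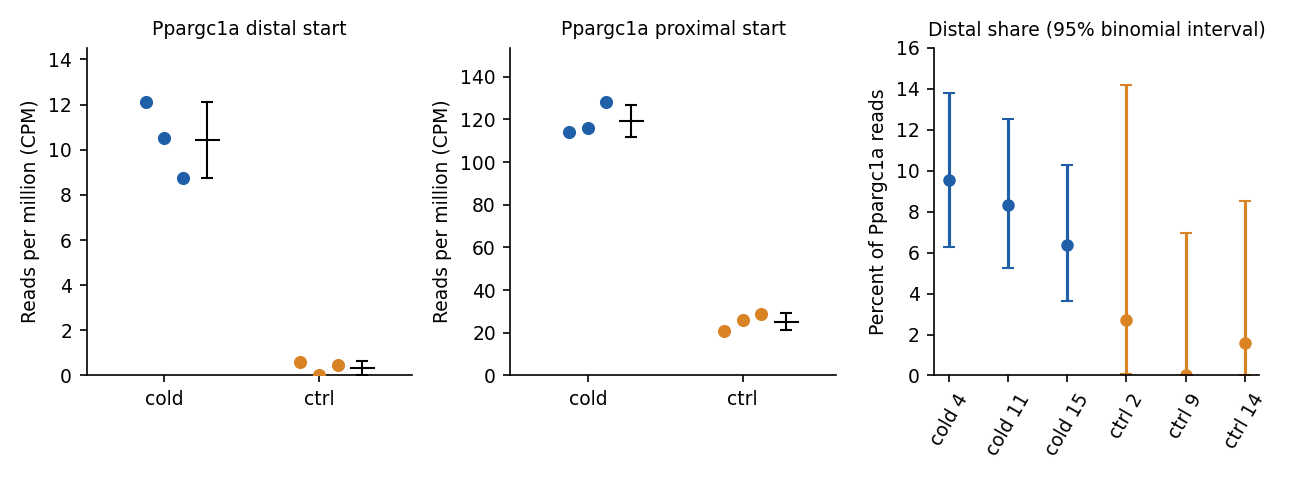
Level in CPM of the distal and the proximal start of Ppargc1a in each mouse, with mean and SD, and at the right the distal share of Ppargc1a reads per mouse with its 95% exact binomial interval. The distal share is 6.38 to 9.54% in cold mice and 0 to 2.7% in ctrl mice, where the intervals are wide.

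As a share of all Ppargc1a reads, the distal start held 9.54%, 8.33% and 6.38% in cold mice, against 2.7%, 0% and 1.59% in ctrl mice. The mean share was 8.09 ± 1.59% in cold mice and 1.43 ± 1.36% in ctrl mice (SD, n = 3 each). The groups did not overlap, which in an exact two-sided permutation test of 3 against 3 mice gives the smallest possible p of 0.1 (0.4 after adjustment over 8 shares). Pooled, the counts were 61 of 749 reads in cold mice and 2 of 151 in ctrl mice. The 0 of 51 reads in ctrl mouse 9 allows a share of up to 5.88%. These intervals and limits cover counting error only. Whether the starts changed unequally was also tested with edgeR's diffSpliceDGE in all 1573 genes with at least 2 tested starts. The use of the distal start was 2.37 higher on the log2 scale in cold mice than that of the gene as a whole, number 2 of 3575 starts by size. Since this start passed the filter on low counts through its cold levels alone, this size and rank give no support for a change in use. The gene's Simes p was 0.00155, number 9 of 1573, but its adjusted p was 0.272, so that the difference in use was not called. In that test 0.254% of genes were called. An unequal change of the starts is therefore not established at this depth.

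At the level of single transcripts, the full-length proximal transcript made up most reads. Ppargc1a-203 (6464 nt, 13 exons, 797 codons) codes for the canonical PGC-1alpha protein and ends in a last exon of 4034 nt. It had 212, 199 and 190 reads in cold mice, against 30, 50 and 56 reads in ctrl mice. Its level was 104 ± 5.7 CPM in cold mice and 23 ± 4.87 CPM in ctrl mice, a fold change of 4.45 (log2 fold change 2.15, SE 0.14, edgeR adjusted p = 6.73e-12). Its share of Ppargc1a reads was 80.2 ± 1.11% in cold mice and 89.3 ± 8.49% in ctrl mice (exact permutation p = 0.1, adjusted 0.4). Ppargc1a-205, a proximal form of 11 exons and 696 codons, had 7, 3 and 6 reads in cold mice against 1, 0 and 2 in ctrl mice. It was too low for the test, and its ratio of rates was 5.38, with a counting interval of 1.54 to 28.8.

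Both remaining long transcripts carry the alternative splice site that lengthens exon 7. Its exon is 105 nt long in place of 74, from 51490017 to 51490121 on chromosome 5, and the 31 extra bases hold 10 coding bases and then a stop codon. In the mouse, this site is known to give the shortened protein NT-PGC-1alpha, which keeps the activation domain of the full protein. GENCODE labels both transcripts as targets of nonsense-mediated decay. The bases below show the change (GENCODE M21, GRCm38, minus strand). Lower case marks the last 46 bases of exon 6, and capitals the first 13 bases of exon 7, which in the longer form end in the stop codon TAA. The span is chr5:51490078-51490245 for the shorter and chr5:51490109-51490245 for the longer form, with the intron left out.
Shorter exon 7, as in Ppargc1a-203: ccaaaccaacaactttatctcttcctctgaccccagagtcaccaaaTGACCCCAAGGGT
Longer exon 7, as in Ppargc1a-201 and Ppargc1a-204: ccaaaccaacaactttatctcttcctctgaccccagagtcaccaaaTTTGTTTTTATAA

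Ppargc1a-201, the proximal form with the longer exon 7 (3041 nt, 270 codons), had 18, 29 and 24 reads in cold mice, against 5, 1 and 4 reads in ctrl mice. It rose 6.91-fold, to 12.4 ± 3.22 CPM in cold mice against 1.75 ± 1.19 CPM in ctrl mice (95% interval 3.82 to 12.5, log2 fold change 2.79, SE 0.42, edgeR adjusted p = 1.62e-05). Ppargc1a-204, the distal form with the longer exon 7 (2452 nt, 266 codons), had 17, 18 and 11 reads in cold mice, against 1, 0 and 0 reads in ctrl mice. Its ratio of rates was 46.4, with a counting interval of 7.93 to 1870 (fitted log2 fold change 5.08, SE 0.72, edgeR adjusted p = 4.71e-06). All 3 tested transcripts of Ppargc1a were thus higher in the cold with no overlap between groups, against 8.33% of transcripts called higher, 7.95% called lower and 16.3% called in either direction. The groups did not overlap in 32.3% of all tested transcripts. Ppargc1a-201 and Ppargc1a-204 passed the filter on low counts through their cold levels alone. Their part in this count was thus set in advance and gives no support, which leaves Ppargc1a-203. The last transcript, the distal fragment Ppargc1a-202 (488 nt, 4 exons), was not tested. It had 8, 3 and 4 reads in cold mice against 0, 0 and 1 in ctrl mice, a ratio of rates of 15.1 with a counting interval of 2.33 to 637.

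**Figure D3:**
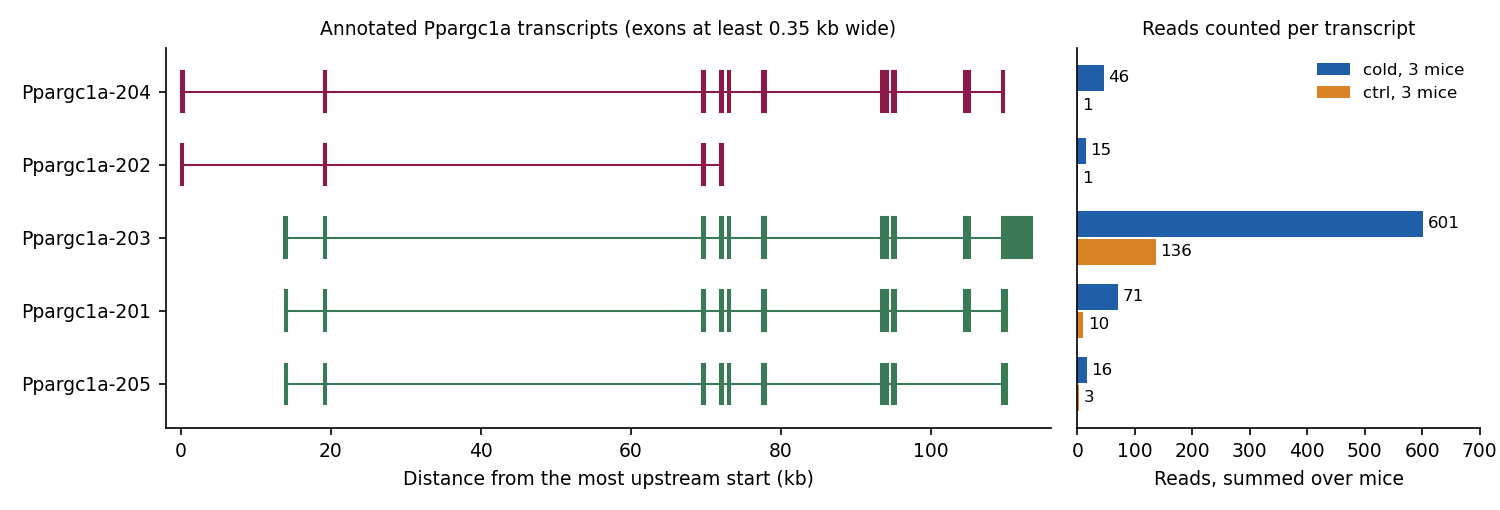
Annotated exons of the 5 Ppargc1a transcripts by distance in kb from the most upstream start (red, distal start; green, proximal start), with the reads counted for each, summed over the 3 cold mice (blue, upper bars) and the 3 ctrl mice (orange, lower bars). Ppargc1a-203 holds 601 of the reads in cold mice and 136 in ctrl mice, and the distal Ppargc1a-204 holds 46 in cold mice and 1 in ctrl mice.

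The longer exon 7 held 117 of 734 reads of transcripts that reach exon 7 in cold mice, and 11 of 150 in ctrl mice. The mean share was 15.9 ± 2.64% in cold mice and 8.21 ± 7.29% in ctrl mice, and the groups overlapped (exact permutation p = 0.3, adjusted 0.6). Ctrl mouse 2, with 6 of 37 reads or 16.2%, lay inside the cold range of 13.8 to 18.9%. The difference of 7.73 percentage points was 11.7 on the first flow cell alone and 1.9 on the second, and it was 11.7 without ctrl mouse 2 and 4.6 without ctrl mouse 9. Among reads of the proximal start alone, the share was 10.4 ± 2.53% in cold mice and 7.43 ± 6.02% in ctrl mice (exact permutation p = 0.6). The transcripts of Ppargc1a were not called for unequal change by edgeR's diffSpliceDGE either (adjusted p = 0.547 over 2568 genes, of which 0.195% were called). The largest single difference in use was that of Ppargc1a-204, at 2.77 on the log2 scale, number 2 of 6728 transcripts by size. Ppargc1a-204 passed the filter on low counts through its cold levels alone, so this size and rank give no support either.

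The annotation limits how these shares, and the split of the gain between the starts, can be read. No annotated transcript joins the distal start to the shorter exon 7 or to the last exon of 4034 nt, since Ppargc1a-204 ends after 104 nt of its last exon and Ppargc1a-202 after 16 nt of exon 4. A full-length molecule from the distal start therefore has no transcript of its own, and the sources used here do not say how such reads were counted. A molecule read only in part, without its 5′ end, can likewise be counted on either start. Such a read need not cover exon 7. The last exon is 4034 nt long in Ppargc1a-203, against 631 nt in Ppargc1a-201 and 104 nt in Ppargc1a-204. A read within the longer part can thus count toward the shorter exon 7 without reaching it. The effect on the share of the longer exon 7 was not tested. With protein-coding transcripts alone, which leaves Ppargc1a-202 as the distal form, the distal share was 1.76 percentage points higher in cold mice, against 6.66 over all transcripts.

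Ppargc1b codes for PGC-1beta, the closest relative of PGC-1alpha, which also acts on nuclear receptors and genes of oxidative metabolism. It lies on the minus strand of chromosome 18, from 61298136 to 61400431. The gene had 120, 157 and 100 reads in cold mice, against 82, 73 and 129 reads in ctrl mice. The levels were 58, 78.6 and 58.2 CPM in cold mice, against 47.4, 37.3 and 60 CPM in ctrl mice. The groups overlapped, since ctrl mouse 14 lay above cold mice 4 and 15. The means were 64.9 ± 11.9 CPM in cold mice and 48.2 ± 11.4 CPM in ctrl mice. The fold change was 1.34 (95% interval 1.05 to 1.72, log2 fold change 0.42, SE 0.17), with an unadjusted p of 0.0221 and an edgeR adjusted p of 0.09, and was not called. It was called without ctrl mouse 14 (log2 fold change 0.62, adjusted p = 0.016), on the first flow cell alone (0.52, adjusted p = 0.0427) and without the filter on low counts (0.43, adjusted p = 0.021). Over the 16 alternatives its adjusted p ranged from 0.016 to 0.58.

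The 3 transcripts of Ppargc1b start within 100 nt of each other, so that no alternative start could be compared. Ppargc1b-202 (3656 nt, 12 exons) had 101, 130 and 85 reads in cold mice, against 70, 59 and 108 reads in ctrl mice. Its mean level was 54.5 ± 9.23 CPM in cold mice and 40.3 ± 10.1 CPM in ctrl mice (log2 fold change 0.42, SE 0.17, edgeR adjusted p = 0.0901). Like the gene, it was called without ctrl mouse 14 (0.62, adjusted p = 0.0247) and on the first flow cell alone (0.60, adjusted p = 0.0229), but its log2 fold change was 0.08 on the second flow cell alone, 0.28 without cold mouse 11 and 0.24 without ctrl mouse 9. Ppargc1b-201 (3330 nt, 13 exons) averaged 9.14 ± 2.54 CPM in cold mice and 7.45 ± 1.27 CPM in ctrl mice (log2 fold change 0.27, SE 0.3, edgeR adjusted p = 0.619). The direction of this last value was not stable: on the first flow cell alone it was -0.052. Ppargc1b-203, a short form of 366 nt, had 8 reads in cold mice and 3 in ctrl mice. The mix of forms differed by less than the spread between mice. Ppargc1b-202 held 84 ± 1.11% of the gene's reads in cold mice and 83.3 ± 2.3% in ctrl mice (exact permutation p = 0.7), and the test of unequal change gave an adjusted p of 1. Of the microRNA genes inside Ppargc1b, Mir378a had no read, and Gm25301 had 5 reads in cold mice and 6 in ctrl mice.

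Pprc1, the third family member, is known from cell culture as a gene induced by serum that works with nuclear respiratory factor 1 and CREB. It lies on the plus strand of chromosome 19, from 46044886 to 46072915, and was close to the limit of detection. It had 9, 8 and 6 reads in cold mice, against 6, 8 and 9 reads in ctrl mice. The mean was 3.95 ± 0.43 CPM in cold mice and 3.91 ± 0.387 CPM in ctrl mice, and the groups overlapped throughout. The gene did not pass the filter on low counts and has no test. The ratio of rates was 1.01, with a counting interval of 0.541 to 1.88, so that the fold change of Ppargc1a lies outside this interval. Of 11 annotated transcripts 6 had a read. Reads from the start shared by the 3 long forms numbered 22 in cold mice and 17 in ctrl mice. The form of 5246 nt led with 14 reads in cold mice and 8 in ctrl mice, followed by that of 5205 nt with 6 reads in each group, and that of 3956 nt with 2 in cold mice and 3 in ctrl mice. The other 3, short forms of 305, 689 and 308 nt, had 0, 1 and 0 reads in cold mice and 3, 2 and 1 in ctrl mice. Ldb1, a gene that overlaps an exon of the 405 nt form of Pprc1, had 60 reads in cold mice and 94 in ctrl mice, while that form itself had none.

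Set within each mouse, the ratio of Ppargc1a to each of its relatives was higher in every cold mouse than in any ctrl mouse. These log2 ratios are of CPM without a correction for length, so only their difference between groups is read. The log2 ratio of Ppargc1a to Ppargc1b was 1.12, 0.68 and 1.23 in cold mice, against -1.13, -0.51 and -1.02 in ctrl mice. The groups lay apart by 1.9 on the log2 scale, at the smallest exact permutation p of 0.1 (adjusted 0.15 over 3 pairs). The ratio of Ppargc1a to Pprc1 was higher by 2.32 in cold mice (exact permutation p = 0.1), and that of Ppargc1b to Pprc1 by 0.43, with overlapping groups (exact permutation p = 0.3). Of the 2 tested family genes, 1 was called, Ppargc1a, against 19.5% of all tested genes. With 2 genes this count does not describe the family.

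Inside the introns of Ppargc1a the annotation holds 4 short genes without an assigned function, none of which touches an exon of Ppargc1a. Gm42614, on the same strand in intron 7 of Ppargc1a-203 (51482752 to 51484305), had 16, 12 and 6 reads in cold mice against 1, 2 and 2 in ctrl mice. Its groups did not overlap, against 35.1% of tested genes without overlap, and its ratio of rates was 7.2, with a counting interval of 2.8 to 23.6. Ratios of rates in this paragraph are scaled by all reads of each library without TMM factors, unlike those of the family members. Gm43605, in intron 2, had 8, 2 and 1 reads in cold mice against 1, 2 and 2 in ctrl mice, and its interval of 0.746 to 8.55 includes no change. Gm42615, in intron 5, had 0, 1 and 3 reads in cold mice against 0, 1 and 1 in ctrl mice. These 3 same-strand genes together had 49 reads in cold mice and 12 in ctrl mice, a ratio of rates of 4.32 with a counting interval of 2.27 to 8.93. The opposite-strand Gm42613 had 1 read. Whether these reads are separate transcripts or unspliced Ppargc1a RNA was not tested, and the use of strand in the counting is not given in the sources used here.

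Likeness to a family gene was measured over all 6 libraries among 6492 tested genes with a mean of at least 10 CPM, as the root mean square difference of centred log2 CPM. Since this measure takes in the cold difference itself, it gives a description with no test. Nearest to Ppargc1a came Alpl, a tissue alkaline phosphatase, at 0.162 log2 units. Next were Cars2, the mitochondrial cysteinyl-tRNA synthetase, at 0.181 and Cpt1a, which carries long-chain fatty acids toward mitochondria, at 0.201. Dio2, the deiodinase that makes active thyroid hormone, was at 0.211 and Atp1b1, a subunit of the sodium pump, at 0.22. Alpl had 50.7, 38.6 and 46 CPM in cold mice against 6.94, 9.7 and 12.1 CPM in ctrl mice. Cars2 had 128, 149 and 120 CPM in cold mice against 20.8, 29.6 and 24.2 CPM in ctrl mice. Atp1b1 had 121, 108 and 137 CPM in cold mice against 20.8, 16.3 and 23.7 CPM in ctrl mice. All 5 genes separated the groups, which follows from how they were chosen, and 35.1% of all tested genes did so as well. Nearest to Ppargc1b were Polrmt, the mitochondrial RNA polymerase, at 0.0708, Abcd3, a peroxisomal transporter, at 0.0906 and Lgals4, a galectin, at 0.0935. Like Ppargc1b, these were highest in cold mouse 11 and lowest in ctrl mouse 9, and none was called (edgeR adjusted p of 0.148 for Polrmt, 0.324 for Abcd3 and 0.287 for Lgals4).

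**Figure D4:**
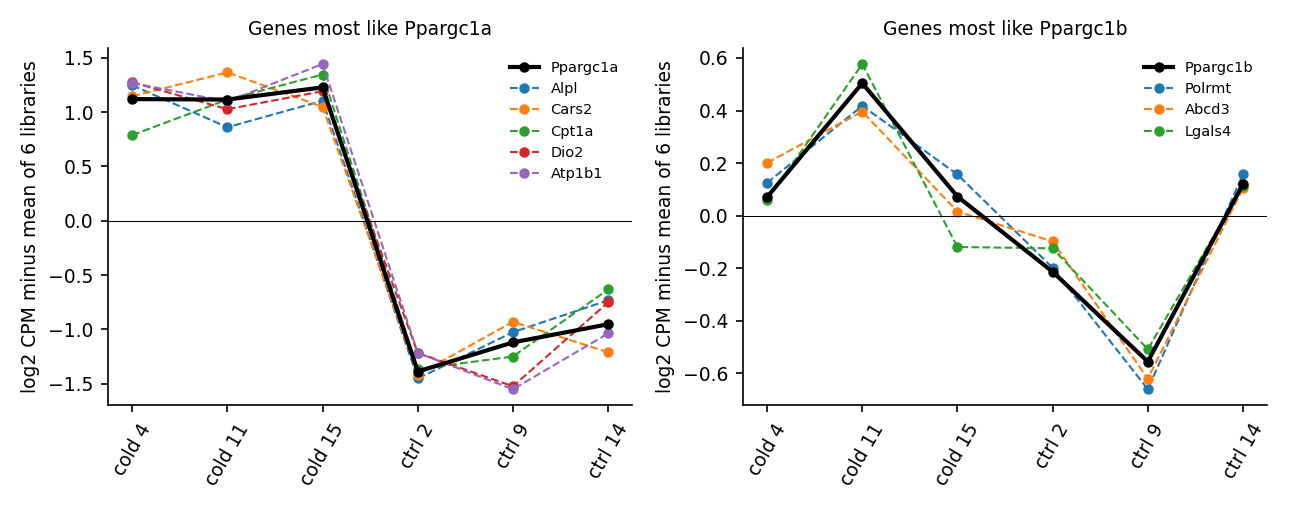
Log2 CPM minus the mean of the 6 libraries for Ppargc1a and its 5 nearest genes (left) and Ppargc1b and its 3 nearest genes (right), with 1 point per mouse and lines that only join points of 1 gene. Genes near Ppargc1a lie high in all 3 cold mice, while genes near Ppargc1b peak in cold mouse 11 and dip in ctrl mouse 9.

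The genes that PGC-1 proteins work with were taken from 7 lists of partners, regulators and reported targets, 118 tested genes in all. Of these, 23 were called higher and 6 lower in cold mice, or 24.6%, against 19.5% of all tested genes, and their median log2 fold change was 0.04 against 0 over all genes. Among 24 tested transcription factors on which PGC-1 proteins dock, 4 were called higher and 1 lower (20.8%, median log2 fold change 0.04). The count of higher factors was 2 without cold mouse 11 or ctrl mouse 14 and 1 without ctrl mouse 9. Esrrg, an estrogen-related receptor, rose 2.36-fold, to 19.8 ± 1.62 CPM in cold mice against 8.26 ± 3.08 CPM in ctrl mice (log2 fold change 1.24, SE 0.25, edgeR adjusted p = 0.00105). Its relative Esrra, itself a reported target as well, was 1.26-fold higher (adjusted p = 0.0214). The call of Esrra was lost by DESeq2, on the second flow cell alone, and without cold mouse 4 or 11 or ctrl mouse 9 or 14. Foxo1, a fasting-related forkhead factor, was 1.58-fold higher, at 41.1 ± 2.34 CPM in cold mice against 26 ± 6.05 CPM in ctrl mice (adjusted p = 0.00643, but 0.0534 without ctrl mouse 9). Srebf1, a driver of lipid synthesis, was 1.57-fold lower, at 99.6 ± 6.84 CPM in cold mice against 157 ± 36.5 CPM in ctrl mice (adjusted p = 0.0142). That call was lost without cold mouse 11 (adjusted p = 0.0881), cold mouse 15 (0.0723) or ctrl mouse 2 (0.0682). Ppard, a receptor for fatty acids, had 19.4 ± 1.1 CPM in cold mice and 12.8 ± 1.66 CPM in ctrl mice, with an adjusted p of 0.0498 that missed the threshold without any 1 of the 6 mice (0.0647 to 0.147).

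Of 17 chromatin and Mediator partners only Smarcd1, the SWI/SNF subunit BAF60a that links PGC-1alpha to chromatin remodelling, was called (5.88% of the list, against 19.5% of all tested genes, median log2 fold change 0.03). It rose 2.22-fold, to 65.5 ± 2.88 CPM in cold mice against 29.6 ± 1.47 CPM in ctrl mice (log2 fold change 1.15, SE 0.13, edgeR adjusted p = 1.24e-06), and stayed called in all 16 alternatives. No member of this list was called lower by edgeR or DESeq2, and 1 had an unadjusted p below 0.05. Among 16 kinases and other enzymes that modify PGC-1alpha, 2 were called higher and 2 lower (25%, median log2 fold change -0.02). Akt2, an insulin-signalling kinase, was 1.35-fold lower, at 126 ± 7.64 CPM in cold mice against 169 ± 10.5 CPM in ctrl mice (adjusted p = 0.00202), and stayed called in all 16 alternatives. The other 3 calls were weak. Prkaa2, a catalytic subunit of AMP kinase, had 23.8 ± 4.6 CPM in cold mice and 15.5 ± 0.946 CPM in ctrl mice (adjusted p = 0.0415), and leaving out any mouse but cold mouse 4 raised that to between 0.0836 and 0.162. Its log2 fold change of 0.60 was 0.36 with the muscle level in the fit (adjusted p = 0.372) and 0.09 on the second flow cell alone. Akt1 had 53.8 ± 7.46 CPM in cold mice and 38.9 ± 8.25 CPM in ctrl mice (adjusted p = 0.0422), and its log2 fold change of 0.45 became -0.075 on the second flow cell alone and 0.24 with the muscle level in the fit (adjusted p = 0.42). It was not called without cold mouse 11 or 15 or ctrl mouse 2 or 9 (adjusted p between 0.106 and 0.176). Rps6kb1, the kinase S6K1, had 21.5 ± 1.35 CPM in cold mice and 31.3 ± 0.268 CPM in ctrl mice (adjusted p = 0.0207), and was not called without cold mouse 4 (0.0521), cold mouse 11 (0.0806) or ctrl mouse 14 (0.0586).

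Among 19 tested factors that act on the Ppargc1a promoters, such as CREB, MEF2 and ATF proteins, Foxo1 alone was called (5.26%, against 19.5% of all tested genes, median log2 fold change -0.09). Over all 6 mice no factor was called lower by edgeR or DESeq2 or had an unadjusted p below 0.05 in that direction. Bhlhe40, a circadian repressor named here after its values were seen, had 38.2, 46.6 and 46.6 CPM in cold mice against 77, 136 and 52.6 CPM in ctrl mice, with no overlap (log2 fold change -1.02, SE 0.44, adjusted p = 0.215). The groups did not overlap in 7 of the 19 factors, near the 35.1% of all tested genes. Bhlhe40 was called lower without ctrl mouse 9 (-0.56, adjusted p = 0.0226) and without ctrl mouse 14 (-1.30, adjusted p = 0.0125). Of 10 tested genes listed as repressors of PGC-1 activity, Tle3 and Lpin1 were called higher and none lower (20%, median log2 fold change 0.14), with 1 of the 10 lower at an unadjusted p below 0.05 and none lower by DESeq2. Tle3, a corepressor that opposes the brown fat programme, had 18.4 ± 4.34 CPM in cold mice and 9.89 ± 1.28 CPM in ctrl mice, a fold change of 1.87 (edgeR adjusted p = 0.00977). That p was 0.0555 without cold mouse 4 and 0.0522 without cold mouse 11. Tle3 was not called by DESeq2 or on the first flow cell alone either, so its call held in 12 of 16 alternatives (highest adjusted p 0.135). Lpin1 was 1.29-fold higher, at 390 ± 17.9 CPM in cold mice against 304 ± 41.7 CPM in ctrl mice (adjusted p = 0.00608, but 0.0659 without ctrl mouse 14). Lipin 1, its product, is a phosphatidate phosphatase that in liver is known to act with PGC-1alpha, so that its place in a list of repressors can be questioned.

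Of 38 tested genes reported as PGC-1 targets, 14 were called higher and 3 lower in cold mice (44.7%, against 19.5% of all tested genes, median log2 fold change 0.18). The list was put together with results of these mice known, and its share is no independent evidence. Elovl3, an elongase of very long fatty acids, rose 5.83-fold, to 810 ± 191 CPM in cold mice against 139 ± 14.3 CPM in ctrl mice (edgeR adjusted p = 0.000475). Dio2 had 187, 157 and 177 CPM in cold mice against 32.4, 26 and 45.1 CPM in ctrl mice, a fold change of 4.99 (adjusted p = 4.01e-09). Cpt1a had 24.2, 30.6 and 36.1 CPM in cold mice against 4.63, 5.1 and 8.38 CPM in ctrl mice, a fold change of 4.84 (adjusted p = 9.88e-07). Fndc5, the precursor of the secreted peptide irisin, rose 4.71-fold, to 16.2 ± 3.98 CPM in cold mice against 3.47 ± 0.635 CPM in ctrl mice (adjusted p = 2.06e-05). Fndc5 and Cpt1a, both low in ctrl mice, passed the filter on low counts through their cold levels. Their part in the count of 14 higher genes was thus set in advance and gives no support. All 4 genes described above were called in every alternative in which they passed the filter. Gk, Perm1, Ucp2, Pdk4, Cpt1b, Tfam, Cycs, Idh3a, Ucp1 and Esrra were the other higher genes, named here after their values were seen. Among them were Perm1, a PGC-1-induced regulator of muscle, at 46.6 ± 3.55 CPM in cold mice against 15.6 ± 6.53 CPM in ctrl mice, and Cpt1b, the muscle-type counterpart of Cpt1a, at 393 ± 23 CPM in cold mice against 267 ± 39.7 CPM in ctrl mice. The 3 lower genes were Gpx1, a glutathione peroxidase (228 ± 44 CPM in cold mice, 371 ± 2.51 CPM in ctrl mice), the mitochondrial transcription factor Tfb2m, and Ndufs1, a subunit of respiratory complex I (385 ± 15.8 CPM in cold mice, 454 ± 25.8 CPM in ctrl mice). Without cold mouse 4, cold mouse 15 or ctrl mouse 2, only 1 target was called lower.

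**Figure D5:**
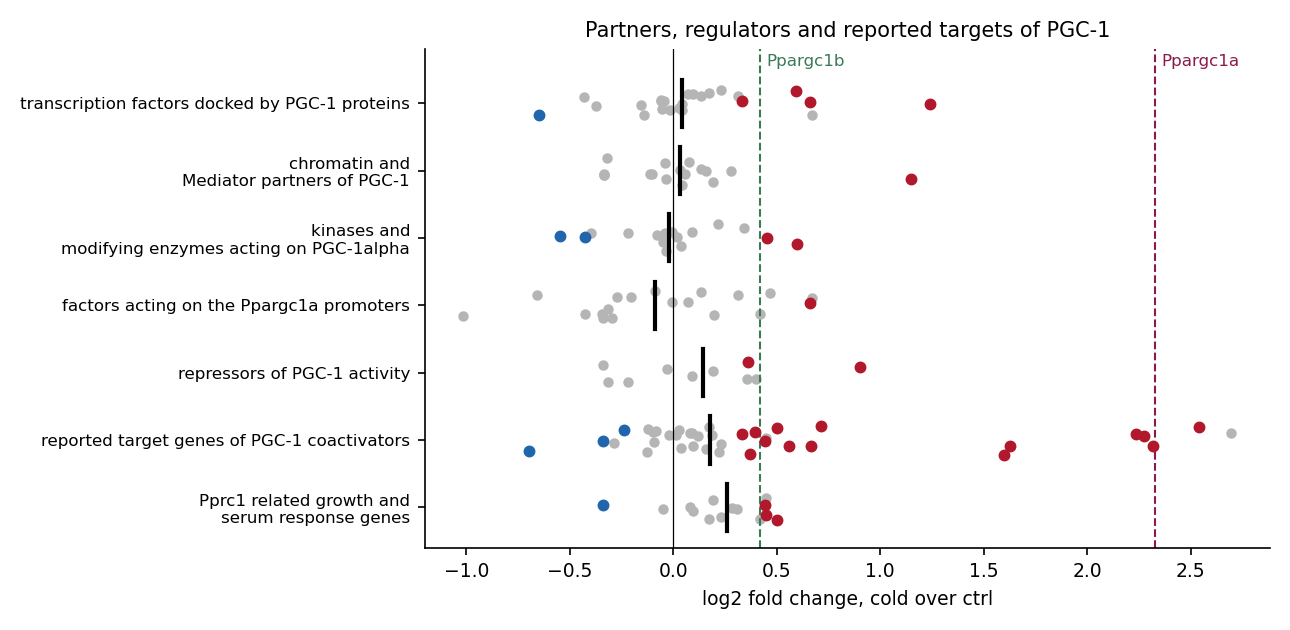
Log2 fold change, cold over ctrl, of each tested gene in the 7 lists, 1 point per gene (red, called higher; blue, called lower; grey, not called), with the median of each list as a black bar. Dashed lines mark Ppargc1a at 2.33 and Ppargc1b at 0.42; the list medians run from -0.09 to 0.26, and the reported targets alone have called members near Ppargc1a.

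Of 14 tested genes tied to Pprc1 through growth and serum response, 3 were called higher and 1 lower (28.6%, against 19.5% of all tested genes, median log2 fold change 0.26). Of these calls, Tfam, Cycs and Tfb2m were already counted among the reported targets, so the lists are not separate results. Npm1, a nucleolar protein of ribosome assembly, was 1.36-fold higher, at 105 ± 6.99 CPM in cold mice against 77.3 ± 3.69 CPM in ctrl mice (edgeR adjusted p = 0.00347). Cycs, cytochrome c, was also 1.36-fold higher, at 3380 ± 37.9 CPM in cold mice against 2490 ± 18.8 CPM in ctrl mice (adjusted p = 1.35e-05). Both stayed called in all 16 alternatives. Tfam, which packs mitochondrial DNA, was 1.41-fold higher, at 62 ± 8.01 CPM in cold mice against 43.8 ± 6.29 CPM in ctrl mice (adjusted p = 0.0131, but 0.088 without cold mouse 11 and 0.0848 without ctrl mouse 9). Tfb2m was 1.27-fold lower, at 57.3 ± 1.79 CPM in cold mice against 72.7 ± 4.22 CPM in ctrl mice (adjusted p = 0.0368), a call lost without any 1 mouse other than ctrl mouse 14 (0.0597 to 0.111). With the muscle level in the fit, the calls of Srebf1 (adjusted p = 0.0735), Ppard (0.215), Rps6kb1 (0.0728), Lpin1 (0.0639), Tfam (0.112) and Tfb2m (0.142) ended, beside those of Prkaa2 and Akt1. The calls of the reported targets Gk and Ndufs1 ended as well.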

How the data were processed

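The authors deposited, for each mouse and flow cell, whole-number read counts per annotated transcript. Reads were mapped with minimap2 to GRCm38, per the submitters' processing notes. Not given in the sources used here are the annotation release, the counting tool, the handling of reads that fit several transcripts and the use of strand. The labels give interscapular brown adipose tissue as the tissue, which was followed, although their homogenisation text names a different depot.

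Counts were summed over the 2 flow cells, so that n is mice. Of 59543 transcripts with a read, 59371 matched GENCODE M21, and 172 with 9857 of 11789059 reads (0.0836%) were left out. Starts within 100 nt were joined into start groups; these are annotated starts, not read ends. Genes, transcripts and start groups were each tested over the whole table with edgeR 4.0.16 (R 4.3.3, limma 3.58.1), with TMM, filterByExpr, glmQLFit with robust estimation, glmQLFTest, and Benjamini-Hochberg adjusted p below 0.05 as the call. Use within genes was tested with diffSpliceDGE. CPM means are mean ± SD over 3 mice, and fold intervals are 95% intervals of the fit. Ratios of rates carry exact 95% intervals of the counts, and shares exact Clopper-Pearson intervals, for counting error only. Shares and within-mouse ratios (0.5 CPM added) were compared with exact two-sided permutation tests, which cannot go below 0.1. Alternatives were DESeq2 1.42.0, other size factors, no filter, a length offset, single flow cells, no mitochondrial genes, a muscle covariate, and leaving out mice. Tests were checked on simulated counts. Tables and figures used Python 3.11.15, pandas 2.3.3, numpy 2.4.6, scipy 1.17.1 and matplotlib 3.10.9.

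Named were the family genes with every transcript and start that had a read, the called list members with the largest changes (up to 4 a list), the 5 genes most like Ppargc1a and 3 most like Ppargc1b (log2 CPM with a prior count of 2), overlapping genes with a read, and the 3 most-read genes of a marker list. The family and the lists were chosen with earlier results of these data known.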

Additional observations from a re-analysis of the deposited data

How the results depend on the processing

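No paired analysis was possible because cold and ctrl mice share no mouse number. Of 911 values recomputed under an alternative, 746 kept their direction and their side of the threshold or moved by less than the spread. Ppargc1a, its proximal and distal starts and its 3 tested transcripts kept both in each alternative that gave a value, with log2 fold changes of 2.19 to 2.44 for the gene, 2.06 to 2.33 for the proximal start and 4.18 to 5.22 for the distal start. The log2 fold change of Ppargc1b became a call without the filter (0.43), on flow cell 1 (0.52) and without ctrl mouse 14, with 0.26 to 0.62 over the fits that leave out 1 mouse; that of its start did so likewise (0.44, 0.52, and 0.26 to 0.62). The share of the distal start differed by 1.76 percentage points among protein-coding transcripts. On flow cell 2 the log2 fold change of Akt1 was -0.075, and the differences in share, in percentage points, were -2.48 for the longer exon 7 among proximal starts, 6.57 for Ppargc1b-201 and -6.49 for Ppargc1b-202. On flow cell 1 the log2 fold change of Ppargc1b-201 was -0.052. Within its spread, the difference in share of Ppargc1a-205 (0.179 percentage points over all mice) also changed sign, from -0.8 to 0.787 over the alternatives, as did that of Ppargc1b-202 without ctrl mouse 9 (-0.554). The log2 fold change of Ppargc1b-202 was 0.60 on flow cell 1 and 0.08 on flow cell 2, and the share of the longer exon 7 differed by 11.7 and 1.9 percentage points. Among promoter factors, 1 was called lower without ctrl mouse 9 or 14. Members of all lists called lower numbered 3 by DESeq2, 2 with the muscle covariate, 2 without cold mouse 15 and ctrl mouse 2, and 3 to 7 without 1 mouse, against 6. By DESeq2, 492 genes were higher and 439 lower, as were 504 and 454 starts and 515 and 481 transcripts. Among the lists, DESeq2 called 2 docked factors, 0 modifying enzymes, 1 repressor and 2 Pprc1-related genes higher, against 4, 2, 2 and 3 by edgeR, and 1 modifying enzyme, 1 target and 0 Pprc1-related genes lower, against 2, 3 and 1. Flow cell 2 alone gave 429 and 408 genes, 463 and 433 starts, and 466 and 446 transcripts. The muscle covariate left 555 lower genes and 580 lower starts, and the fit without those 2 mice 506 and 577. Over all 6 mice the counts were 847 and 848 genes, 911 and 883 starts, and 975 and 930 transcripts. The fit without those 2 mice, and edgeR's earlier quasi-likelihood fit, were added after the data were seen. One flow cell holds fewer reads, and fits without mice hold fewer samples; for the other changes the cause was not tested. The 46 reads of Pprc1 and the 2 distal-start reads in ctrl mice limit what these depths can show.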
